A study of Homo sapiens with 8 samples.

Results

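The transcriptome of mock PC3 cells was compared with those of mock FaDu and mock PANC-1 cells. PC3 is a human prostate cancer line, FaDu a hypopharyngeal squamous cell carcinoma line and PANC-1 a pancreatic cancer line. The members were the 4 Cy3 channels that held mock PC3 RNA, of 8 mock channels in all, and they were set against the 2 mock channels of FaDu and the 2 of PANC-1. For every gene name on the array the brightest probe was kept, which gave 43317 names, and the 21517 names that were well above background in all channels of at least 1 line were tested, by the flag that Agilent's software sets for each spot. A gene was called higher or lower in PC3 when it passed an adjusted p of 0.05 (limma, Benjamini-Hochberg adjustment) with a log2 difference of at least 1, that is 2-fold, against FaDu and again against PANC-1.

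The study transfected these lines with microRNAs or siRNAs to find the genes that respond, and each of its 8 Agilent arrays carried 1 transfected sample in Cy5 beside 1 mock sample in Cy3. Mock cells of all 3 lines received no transfection, according to the labels. In the Cy5 channels, PC3 had received miR-150-5p, miR-150-3p, miR-99a-3p or miR-100-3p. FaDu had received 1 of the strands miR-99a-3p and miR-99a-5p, and PANC-1 1 of the siRNAs si-FOXQ1-1 and si-FOXQ1-2. Cells grew in an RPMI medium or DMEM, and the labels do not say which line had which, so medium and line cannot be told apart. Total RNA was taken with Trizol. Each line is an established culture from a single tumour, so that the comparison is one of lines and not of tumour types.

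PC3 was established from a bone metastasis of a prostate adenocarcinoma and grows without androgen. Normal prostate luminal cells depend on androgen, which drives the secreted kallikreins, while homeobox genes such as HOXB13 mark the hindgut and urogenital origin of the gland. Epithelial cells are held together by cadherins, whose tails bind catenins and through them actin, and by tight junctions built on claudins and occludin; loss of this set together with gain of vimentin, fibronectin and N-cadherin is known as epithelial-mesenchymal transition. Squamous cells make the keratins of stratified epithelium under TP63, and pancreatic duct cells make the simple keratins.

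The mock channels of a line came in pairs. The 2 FaDu channels and PC3 replicates 1 and 2 lay on row 1 of the only slide, and PC3 replicates 3 and 4 and the 2 PANC-1 channels lay on row 2. Channels of 1 line within a row differed by a robust SD of 0.0619 to 0.0762 log2 per channel over 15871 genes, close to the 0.0523 to 0.0629 between repeated spots of a probe within an array, whereas PC3 channels of different rows differed by 0.141 to 0.146. Each pair was therefore counted as 1 sample for standard errors and p-values of single genes, which leaves 2 PC3 samples, 1 FaDu and 1 PANC-1, with the lone samples assumed to vary like PC3. All 4 PC3 values are printed in the order of replicates 1 to 4. Nothing in the labels says that the samples came from separate cultures, so the p-values may measure technical spread only. For PC3, slide row and RNA sample cannot be told apart. Well-above-background spots made up 47.6% to 49.2% of gene spots in the PC3 channels and 44.4% to 45.8% in the others. The lowest normalized log2 signal still well above background was 3.93 to 4.10 in PC3 channels and 4.36 to 4.51 in the others. The part of this in the counts of higher and lower genes was not tested. No gene spot was saturated.

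Levels below are log2 signals of the Cy3 channel after quantile normalization, and differences are PC3 minus the other line on that scale, with ± for the SE. Mock PC3 differed from FaDu at 9037 genes (42.0%) and from PANC-1 at 7120 (33.1%). Against FaDu, 4746 genes (22.1% of those tested) were higher in PC3 and 4291 (19.9%) lower. Against PANC-1, 3642 (16.9%) were higher and 3478 (16.2%) lower. Higher than in both other lines were 2155 genes (10.0%), of which 1426 matched a RefSeq protein-coding gene, and lower than in both were 1479 genes (6.87%), 995 of them protein-coding. With the channels of a row averaged the counts were 2137 (9.93%) and 1430 (6.65%) against both lines, 4728 (22.0%) and 4217 (19.6%) against FaDu, and 3575 (16.6%) and 3385 (15.7%) against PANC-1. The fits shared 2126 higher and 1407 lower genes. With the 2 PC3 channels of row 1 alone the counts were 2089 and 1494, and with those of row 2 alone 2157 and 1521. Of the called genes, 954 were at least 4-fold higher than in each of the other lines and 476 at least 4-fold lower. In such bulk samples, fewer cells that express a gene and less RNA of it per cell cannot be told apart. With a normexp background correction and an offset of 50 added to every signal, the counts were 1153 and 618.

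**Figure D1:**
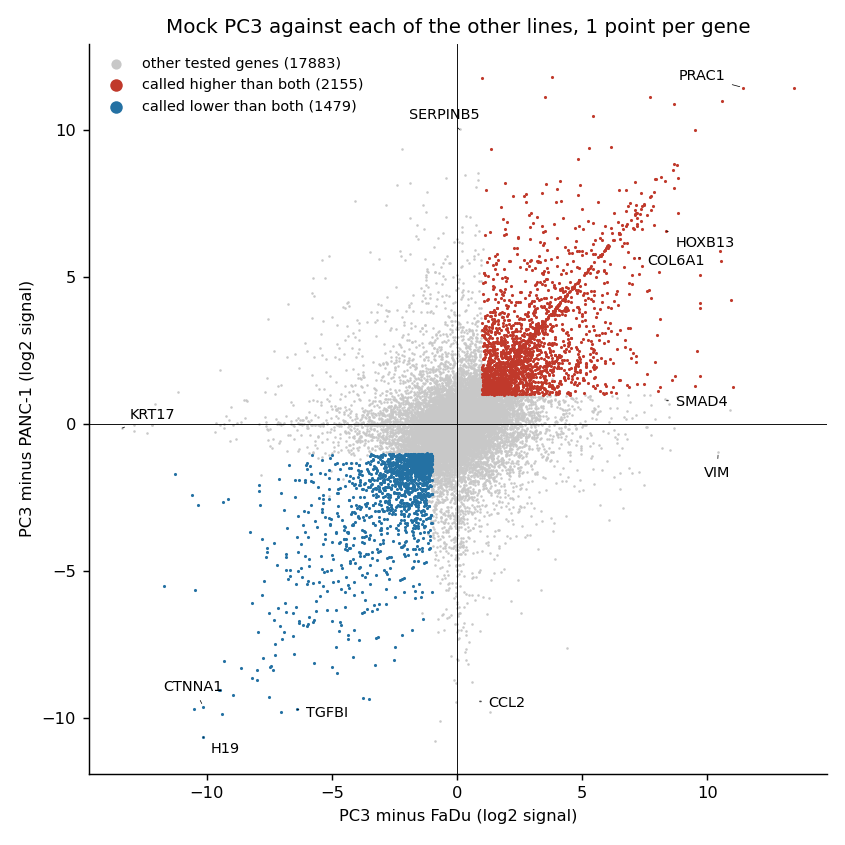
Each point is 1 of the 21517 tested genes, with the difference of mean log2 signal PC3 minus FaDu on the x axis and PC3 minus PANC-1 on the y axis; red and blue points are the 2155 genes called higher and the 1479 called lower than in both lines. The axes share the same PC3 channels, so the slope of the cloud is no result. Named genes lie far out in the quadrants, such as HOXB13 at 8.37 and 6.56, while VIM lies at 10.44 and -0.93.

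Among genes measured above background on all 8 arrays, those most raised in PC3 included HOXB13, SPDEF, TFF1, PLAT and 2 collagen VI chains. Genes ranked as most raised or most reduced were picked by their differences in these channels, so their lack of overlap follows from the choice. HOXB13, the homeobox factor of prostate and caudal epithelium, read 15.31, 15.31, 15.45 and 15.64 in PC3, 7.09 and 7.03 in FaDu and 8.79 and 8.96 in PANC-1. The lowest PC3 channel lay far above every other channel. HOXB13 differed by 8.37 ± 0.14 from FaDu and by 6.56 ± 0.14 from PANC-1, with adjusted p of 0.000404 and 0.000493 (limma, Benjamini-Hochberg). Its probe lies at chr17:46802144-46802203 of hg19. SPDEF, the prostate-derived Ets factor of secretory epithelium, read 11.91, 11.85, 12.08 and 12.12 in PC3, 4.82 and 5.19 in FaDu and 6.95 and 6.91 in PANC-1. Its PC3 channels did not overlap those of either line, and the differences were 6.98 ± 0.15 and 5.06 ± 0.15.

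TFF1, a trefoil peptide secreted by mucosal epithelium, read 13.19, 13.25, 12.93 and 12.89 in PC3, 6.12 and 6.38 in FaDu and 6.89 and 6.95 in PANC-1. COL6A1, a chain of the matrix collagen VI, read 16.00, 16.03, 15.81 and 16.11 in PC3, 8.69 and 8.76 in FaDu and 10.34 and 10.34 in PANC-1, and its partner chain COL6A2 read 12.61, 12.58, 13.05 and 13.06 in PC3, 7.22 and 7.40 in FaDu and 6.70 and 6.43 in PANC-1. Neither chain overlapped between PC3 and the other lines, and COL6A1 differed by 7.26 ± 0.09 and 5.65 ± 0.09. PLAT, the tissue plasminogen activator, had means of 12.62 in PC3, 6.82 in FaDu and 6.37 in PANC-1. INHBA, the subunit of activin A, had means of 12.68 in PC3, 6.71 in FaDu and 7.53 in PANC-1, and RAMP1, which partners the receptor for calcitonin gene-related peptide, had means of 15.19 in PC3, 7.91 in FaDu and 10.08 in PANC-1. All 3 were higher than in both lines, with SEs of 0.11 to 0.12. The other genes of this set were FCHO1, TMEM98, the antisense RNA ZNF503-AS2 and PRSS3P2, a trypsinogen pseudogene. PRSS3P2 had means of 14.24 in PC3, 7.05 in FaDu and 7.24 in PANC-1, but the trypsinogen copies are so alike that the probe may also read PRSS3, which was raised too with means of 13.72 in PC3, 4.90 in FaDu and 6.57 in PANC-1.

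The genes most reduced in PC3 while still above background everywhere included TGFBI, THBD, BEX2, AKR1B1, BCAT1 and HOXB2. TGFBI, a matrix protein induced by TGF-beta, read 6.52, 6.72, 4.96 and 5.19 in PC3, 12.24 and 12.25 in FaDu and 15.47 and 15.61 in PANC-1. Every PC3 channel was below every other channel, although the PC3 pairs themselves differed. The differences were -6.40 ± 0.69 and -9.69 ± 0.69, with adjusted p of 0.00346 and 0.00204 (limma, Benjamini-Hochberg). THBD, thrombomodulin, read 5.57, 5.16, 5.42 and 5.05 in PC3, 13.05 and 13.11 in FaDu and 11.18 and 11.04 in PANC-1, and AKR1B1, aldose reductase, read 6.88, 6.67, 6.83 and 6.69 in PC3, 13.46 and 13.42 in FaDu and 11.70 and 11.77 in PANC-1. Both were far below either line in all 4 PC3 channels, THBD by -7.78 ± 0.14 and -5.81 ± 0.14. BCAT1, the cytosolic branched-chain aminotransferase, had means of 5.19 in PC3, 12.04 in FaDu and 9.70 in PANC-1. BEX2 had means of 7.31 in PC3, 14.06 in FaDu and 12.58 in PANC-1, and MT1M, a metallothionein that binds zinc and copper, 7.20 in PC3, 11.49 in FaDu and 11.93 in PANC-1. All 3 were lower than in both lines, as were ADRA2C, PLBD1, SLC16A5, the vault RNA VTRNA1-3, HOXB2 and HOXB9. In this set the differences ran from -9.69 (TGFBI, PANC-1) to -4.14 (HOXB9, FaDu).

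**Figure D2:**
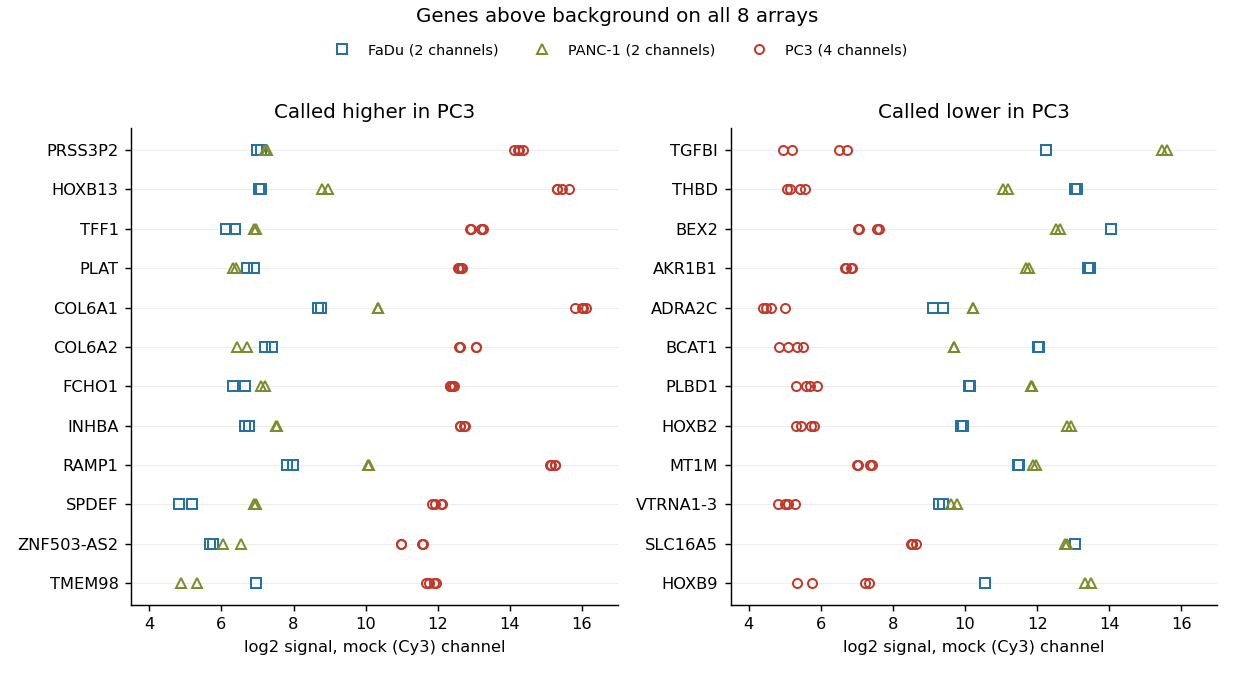
Log2 signal in the mock channel (x axis) of the 12 genes most raised and the 12 most reduced in PC3 among those above background on all 8 arrays; every marker is 1 channel, circles for PC3, squares for FaDu and triangles for PANC-1. No PC3 channel overlaps another line in any of the 24 genes. That follows from the choice of genes with large differences in these channels. The PC3 circles of TGFBI and HOXB9 fall into pairs that follow the slide rows.

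Of the genes called higher, 677 were above background in all 4 PC3 channels and in no other channel, so that only a lower bound of the fold can be given. The bound sets the mean of PC3 against the lowest signal still well above background in the other line. Some spots not well above background read higher than that, up to 5.11 in FaDu, 4.88 in PANC-1 and 4.63 in PC3. The bounds here and below therefore hold for this limit only and would be smaller with a higher one. PRAC1, which codes for a small nuclear protein of prostate and distal gut and lies beside HOXB13, read 13.62, 13.56, 13.75 and 13.79 in PC3, 2.23 and 2.24 in FaDu and 2.26 and 2.25 in PANC-1. It was thus at least 605-fold higher than in FaDu and at least 626-fold higher than in PANC-1. PHACTR3, a regulator of actin and phosphatase, was at least 399.8-fold and 413-fold higher. TCN1, a vitamin B12 carrier, was at least 217-fold and 225-fold higher. For the protease inhibitor SERPINB7 the bounds were 96.4-fold and 99.7-fold. DPP4, the surface dipeptidyl peptidase, was at least 79.3-fold and 82-fold higher. The remaining genes of this kind that were ranked highest were TRIM58, ANKRD30BP2, PTPRD, ZNF671, SIDT1, UTS2 and ANKRD29, with bounds between 36.7-fold (SIDT1, FaDu) and 122-fold (TRIM58, PANC-1).

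A further 504 genes called higher were above background in some of the other channels. The examples that follow were chosen after their values were seen. MSMP, which codes for a secreted microprotein related to the prostate protein MSMB, read 17.76, 17.49, 17.47 and 17.76 in PC3, 2.47 and 5.83 in FaDu and 6.49 and 5.95 in PANC-1. All PC3 channels were above those of either line, by 11.40 on average against PANC-1. Only 1 of the 2 FaDu channels was above background, so no exact difference from FaDu is given. G0S2, an inhibitor of triglyceride lipase, read 12.64, 12.66, 12.88 and 12.84 in PC3, 2.21 and 2.26 in FaDu and 6.84 and 6.92 in PANC-1, which is at least 319-fold higher than in FaDu. HSD17B2, which oxidises estradiol and testosterone, had means of 11.97 in PC3, 5.82 in FaDu and 2.56 in PANC-1, at least 192-fold higher than in PANC-1. SHISA3 had means of 13.23 in PC3, 4.54 in FaDu and 2.35 in PANC-1, and FZD8, a Wnt receptor, 12.90 in PC3, 5.00 in FaDu and 4.59 in PANC-1. Both were called higher than in either line, with each FZD8 comparison resting on 1 of 2 channels above background.

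Conversely, 264 genes called lower were above background in all 4 channels of the other lines and in no PC3 channel. H19, an imprinted noncoding RNA, read 3.13, 2.20, 3.51 and 2.68 in PC3, 13.01 and 13.05 in FaDu and 13.49 and 13.53 in PANC-1. It was at least 529-fold lower in PC3 than in FaDu and at least 740.0-fold lower than in PANC-1, with a probe at chr11:2016674-2016733 of hg19. CTNNA1, the alpha-catenin that couples cadherins to actin, read 2.39, 2.41, 2.41 and 2.44 in PC3, 12.54 and 12.56 in FaDu and 11.96 and 12.07 in PANC-1. All 4 PC3 values were at the background level, at least 380.2-fold and 262-fold below the other lines, and both probes of the gene showed it. The probe kept lies at chr5:138270387-138270446 of hg19. KAT2A, a histone acetyltransferase, was at least 173-fold and 209.5-fold lower. For ATP6V0A1, a subunit of the proton pump of lysosomes, the bounds were 581-fold and 239.5-fold. HEXA, the lysosomal hexosaminidase, was at least 124-fold and 200.2-fold lower. The others ranked here were FAM83G, FAM213A (now PRXL2A), PARP6, ZNF655, PXMP4, BMP7 and PAFAH1B3. Among another 330 genes called lower, with some PC3 channels above background or another line below it, stood CYBA, a subunit of the NADPH oxidase, with means of 3.27 in PC3, 12.75 in FaDu and 12.29 in PANC-1, and IGFBP7, with 2.86 in PC3, 11.06 in FaDu and 8.93 in PANC-1, both chosen after their values were seen. In 102 of all genes called lower, PC3 and 1 other line were both below background, so that no fold can be given against that line.

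Of 13960 tested protein-coding genes with a probe position, 162 were of this kind, and 21 of them stood side by side with another such gene, at 9 loci. This search was added after the data were seen. On chromosome 5 CTNNA1 stood beside SIL1, a co-chaperone of the endoplasmic reticulum, which read 2.41, 2.40, 2.44 and 2.47 in PC3, 10.33 and 10.42 in FaDu and 9.48 and 9.51 in PANC-1. On chromosome 17, between 40277881 and 40474463 of hg19, the run was RAB5C, GHDC, STAT5B, STAT5A and STAT3. STAT3, a transcription factor downstream of cytokine receptors, read 2.32, 2.32, 2.34 and 2.34 in PC3, 8.80 and 8.94 in FaDu and 9.54 and 9.55 in PANC-1, at least 29.6-fold and 47.2-fold lower. STAT5A read 2.08, 2.49, 2.06 and 2.09 in PC3, 4.65 and 4.66 in FaDu and 8.09 and 8.01 in PANC-1, and STAT5B had means of 2.22 in PC3, 7.93 in FaDu and 10.34 in PANC-1. All 4 PC3 channels of the 3 STAT genes were below the other lines without overlap, which the search itself favoured. STAT5A, dim in FaDu, lost its call against FaDu with the normexp correction. DHX58 and KAT2A formed a separate pair close by, from 40253459 to 40265294. Other loci were FAM213A with TSPAN14 and VWA2 with AFAP1L2 on chromosome 10, the homeobox pair IRX3 and IRX5 on chromosome 16, FOXL2 with FOXL2NB on chromosome 3, and ZNF655 with GS1-259H13.2 (now TMEM225B) on chromosome 7. The arrays measured RNA and give no DNA copy number.

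Of the 20 genes of prostate epithelium and androgen response that were listed, 15 could be tested. Of these, 4 were higher than in both lines and none lower, beside 10.0% and 6.87% of all tested genes. HOXB13, TMPRSS2 and SLC45A3 were among the 4. The median difference of the tested members was 1.34 against FaDu and 0.56 against PANC-1, beside -0.05 and -0.03 over all tested genes. TMPRSS2, an androgen-driven membrane protease, read 8.44, 8.43, 8.25 and 8.11 in PC3, 3.14 and 2.74 in FaDu and 6.07 and 6.27 in PANC-1, at least 14.6-fold higher than in FaDu and 2.14 ± 0.21 from PANC-1. SLC45A3, known as prostein, had means of 10.61 in PC3, 8.55 in FaDu and 8.34 in PANC-1. Defining prostate products had no signal above background: KLK3, the prostate-specific antigen, ACPP, the prostatic acid phosphatase (now ACP3), the noncoding RNA PCA3 and MSMB passed in none of the 8 channels. KLK2 had means of 4.60 in PC3, 4.55 in FaDu and 4.18 in PANC-1 and did not pass against either line. NDRG1, also named in androgen response, was 4.39 ± 0.13 above PANC-1 but not above FaDu, where it read -0.46 ± 0.13. STEAP1, STEAP2, AMACR and PSCA were higher than in FaDu only.

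HOX genes, which encode position along the body axis in 4 clusters, differed strongly between the lines. Of 39 listed, 34 were tested. In PC3, 4 were higher than in both lines and 11 lower, beside 10.0% and 6.87% of all tested genes. With the normexp correction 5 were lower, and HOXB3, HOXB7, HOXB8, HOXC10, HOXC12 and HOXD10 lost their calls against FaDu, PANC-1 or both. HOXA11 lost its call against PANC-1 under normexp with quantile normalization, at 0.98. The higher ones were HOXA9, HOXA11, HOXA13 and HOXB13, 11.8% of those tested and thus near the share of all tested genes. HOXA10, which lies between HOXA9 and HOXA11, was not among them. Its 2 probes differed from FaDu by -0.05 and 0.01. HOXA13 read 10.42, 10.47, 10.79 and 10.81 in PC3, 3.69 and 2.33 in FaDu and 6.06 and 6.14 in PANC-1, at least 72.9-fold higher than in FaDu and 4.53 ± 0.22 from PANC-1. HOXA9 had means of 11.35 in PC3, 10.19 in FaDu and 3.40 in PANC-1, at least 125-fold higher than in PANC-1 and 1.16 ± 0.13 from FaDu. These values are of its brightest probe. Its 4 probes ran from 0.37 to 1.77 against FaDu and from 1.18 to 7.95 against PANC-1. Lower than in both were HOXB2, HOXB3, HOXB4, HOXB7, HOXB8 and HOXB9, HOXC4, HOXC9, HOXC10 and HOXC12, and HOXD10. The call of HOXB4 against FaDu rests on its brighter probe, since its 2 probes differed from FaDu by -3.41 and 1.44. HOXB2 read 5.81, 5.74, 5.46 and 5.30 in PC3, 9.94 and 9.90 in FaDu and 12.93 and 12.83 in PANC-1, without overlap. HOXB8 read 2.34, 2.35, 2.37 and 2.36 in PC3, 4.65 and 5.10 in FaDu and 10.36 and 10.39 in PANC-1, at least 84.2-fold lower than in PANC-1. HOXC9 had means of 7.24 in PC3, 9.51 in FaDu and 12.52 in PANC-1, and HOXD10 2.50 in PC3, 8.97 in FaDu and 4.98 in PANC-1, at least 31.7-fold lower than in FaDu. For HOXB7 and HOXC12, PC3 and FaDu were both below background, so their calls against FaDu carry no fold. HOXB5 and HOXB6 lay between the other lines, with HOXB6 at 10.60 in PC3, 9.08 in FaDu and 14.23 in PANC-1. HOXB9 differed between the PC3 pairs, with 7.34, 7.24, 5.34 and 5.76 in PC3, 10.56 and 10.55 in FaDu and 13.32 and 13.48 in PANC-1. Against PANC-1 alone, 19 HOX genes were lower, beside 16.2% of all tested genes, and 8 higher, beside 16.9%. The median difference of the tested HOX genes from PANC-1 was -2.80.

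**Figure D3:**
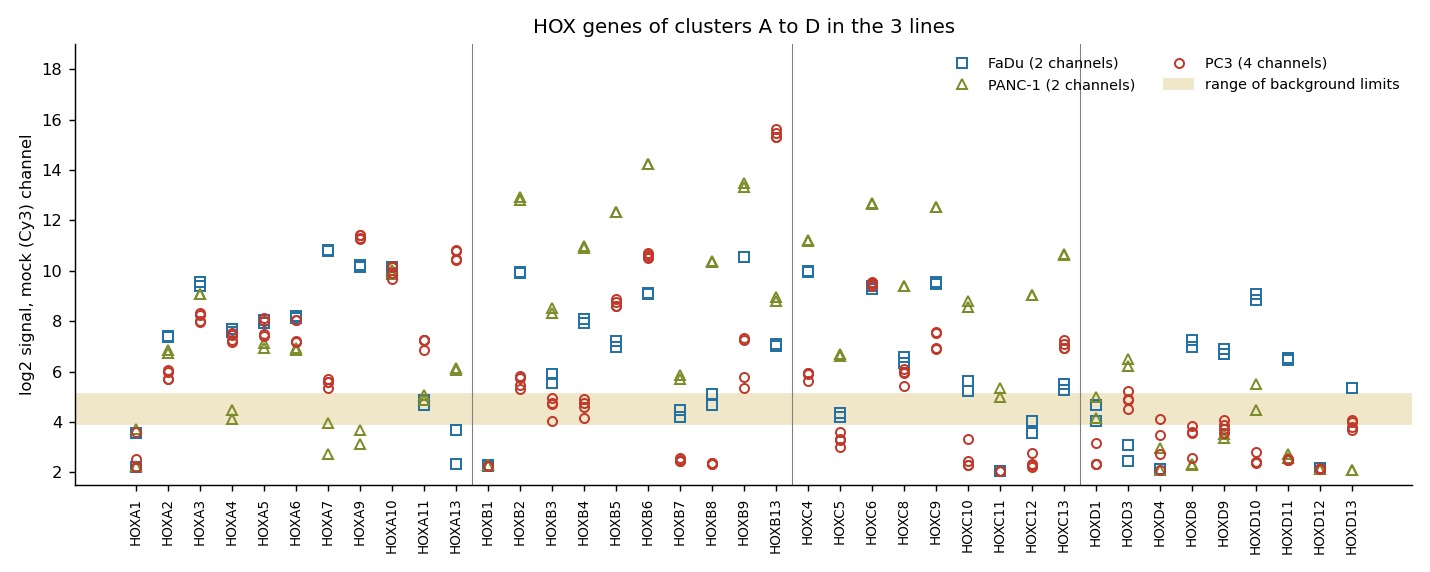
Log2 signal in the mock channel (y axis) of the 39 HOX genes, ordered by cluster and number, with 1 marker per channel and the range of background limits shaded. PC3 circles lie highest at HOXA9, HOXA11, HOXA13 and HOXB13, and PANC-1 triangles lie highest from HOXB2 to HOXB9 and over cluster C.

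Stratified squamous markers set FaDu apart, and PC3 held part of the set. Of 25 listed genes 23 were tested. In PC3, 17 were lower than in FaDu, beside 19.9% of all tested genes, and 9 higher than in PANC-1, beside 16.9%. KRT5 and KRT14, the keratins of the basal layer, and KRT17 were above background in FaDu alone. KRT14 was at least 4387-fold lower in PC3 by its brightest probe, and its 2 probes differed from FaDu by -12.92 and -7.25. TP63, the master regulator of this epithelium, was at least 18.9-fold lower in PC3. Only PKP1, a desmosomal plaque protein, and LAMA3, a chain of the basement membrane laminin, were higher than in both lines. That is 8.70% of the tested members, beside 10.0% of all tested genes. PKP1 read 9.64, 9.76, 9.62 and 9.59 in PC3, 7.83 and 7.71 in FaDu and 3.17 and 3.28 in PANC-1, and LAMA3 read 11.80, 11.78, 12.01 and 11.97 in PC3, 10.61 and 10.56 in FaDu and 5.39 and 5.38 in PANC-1. SERPINB5, the serpin maspin, had a mean of 12.10 in PC3, 0.10 ± 0.11 from FaDu and at least 209.7-fold higher than in PANC-1, where it was below background. The desmosomal cadherin DSC3 had means of 8.49 in PC3, 9.39 in FaDu and 2.48 in PANC-1, with no call against FaDu, but its 2 probes differed from FaDu by -0.90 and 4.72. KRT6A and KRT6B are near-identical copies whose signals are uncertain; each was above background in 2 of 4 PC3 channels.

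Markers of pancreas and of neuroendocrine cells were mixed. For comparison, 10.0% of all tested genes were higher in PC3 than in both lines and 6.87% lower. Of 10 tested pancreatic genes, KRT7, a simple duct keratin, and SPINK1, a trypsin inhibitor, were higher in PC3 than in both lines, and CA2, a carbonic anhydrase of duct cells, was lower. KRT7 read 15.00, 14.91, 14.30 and 14.28 in PC3, 13.47 and 13.52 in FaDu and 11.68 and 11.71 in PANC-1. CA2 read 2.66, 2.24, 2.06 and 2.05 in PC3, 12.64 and 12.60 in FaDu and 4.96 and 5.08 in PANC-1, at least 398-fold lower than in FaDu. With the normexp correction, SPINK1 lost its calls and CA2 its call against PANC-1, and KRT7 was at 0.98 against FaDu with 75th percentile scaling. KRT19, another duct keratin, had means of 17.02 in PC3, 15.84 in FaDu and 17.19 in PANC-1. PDX1, CFTR, ONECUT1, CPA1 and NEUROD1 were not above background in any line, PANC-1 included. Of 9 tested neuroendocrine genes SCG5 was higher than in both lines and CHGB and UCHL1 were lower. UCHL1 read 4.33, 4.57, 3.34 and 4.16 in PC3, 10.10 and 10.13 in FaDu and 5.41 and 5.42 in PANC-1, with 2 of 4 PC3 channels above background. SCG5, CHGB and UCHL1 all lost a call with the normexp correction. FOXA2, a forkhead factor of endoderm, had means of 11.96 in PC3, 7.48 in FaDu and 11.58 in PANC-1, 4.47 ± 0.11 from FaDu. The defining neuroendocrine factors INSM1 and SRRM4 were above background nowhere.

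Epithelial junction genes were mostly lower in PC3 than in FaDu. Of 34 tested genes, 29 were lower than in FaDu, beside 19.9% of all tested genes, and 2 higher. Against PANC-1 15 were higher, beside 16.9% of all tested genes, and 5 lower, a share near the 16.2% of all tested genes. Higher than in both lines were 5.88% of the tested junction genes and lower 14.7%, beside 10.0% and 6.87% of all tested genes. The higher ones were the claudins CLDN3 and CLDN4, which seal tight junctions. CLDN3 read 13.69, 13.64, 13.59 and 13.56 in PC3, 7.89 and 7.75 in FaDu and 10.55 and 10.54 in PANC-1, a difference of 5.80 ± 0.10 and 3.08 ± 0.10. CLDN4 had means of 15.94 in PC3, 12.70 in FaDu and 14.51 in PANC-1, and its difference from PANC-1 was 0.91 with the mean over probes, which ends the call. Lower than in both were CTNNA1, CLDN1, CLDN7, OCLN and SPINT2. OCLN, occludin, had means of 5.87 in PC3, 8.54 in FaDu and 8.34 in PANC-1. SPINT2, an inhibitor of membrane serine proteases, had means of 13.97 in PC3, 15.43 in FaDu and 16.16 in PANC-1. CLDN7 had an adjusted p of 0.0621 against PANC-1 with the channels of a row averaged (limma, Benjamini-Hochberg), which ends its call. The other catenins were above background in every PC3 channel: CTNNB1, beta-catenin, had means of 11.91 in PC3, 12.06 in FaDu and 11.22 in PANC-1, and CTNND1, p120, 9.81 in PC3, 10.01 in FaDu and 9.67 in PANC-1, neither past the threshold against either line.

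The PC3 samples themselves differed in part of these genes. Of 19647 tested genes above background in both channels of at least 1 PC3 row, 188 (0.957%) were at least 2-fold lower in row 2 than in row 1 without overlap, and 38 (0.193%) were higher. This comparison was added after the data were seen and has 1 sample a side, so it carries no test. Between the 2 channels of the same row, 71 genes differed 2-fold in row 1 and 142 in row 2. Some row differences thus rest on 1 channel, such as KRT9, with 4.74 and 10.10 in row 1 and 4.68 and 4.70 in row 2. Among the 32 junction genes within these 19647, 11 were lower in row 2 and none higher. CDH1, E-cadherin, read 9.39 and 9.40 in row 1 and 7.61 and 7.65 in row 2. OVOL1, a repressor of mesenchymal genes, read 7.17 and 7.20 in row 1 and 3.98 and 3.87 in row 2, and the grainyhead factor GRHL2 read 5.58 and 5.80 in row 1 and 3.43 and 3.83 in row 2. ESRP1, the epithelial splicing regulator, read 6.45 and 6.41 in row 1 and 4.24 and 3.87 in row 2, and RAB25, a trafficking GTPase of epithelium, 6.30 and 5.68 in row 1 and 3.07 and 2.47 in row 2. In row 2, OVOL1, GRHL2, ESRP1 and RAB25 were above background in neither channel, so their values there are only a floor. The others were OVOL2, CRB3, CLDN7, PRSS8, ST14 and EHF, with differences from -2.27 (OVOL2) to -1.64 (ST14) among those above background in both rows, while EHF was above background in 1 of 2 channels of row 2. ESRP2 and GRHL1 differed by only -0.36 and -0.11.

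The same rows differed in the Cy5 channels, which held transfected PC3 cells. Of the 188 genes lower in row 2, 125 were also at least 2-fold lower in the row 2 Cy5 channels, beside 3.37% of all genes so measured, and of the 38 higher genes 25 were higher, beside 3.1%. In Cy5 the row difference was -2.15 for CDH1. The Cy5 channels of row 1 followed miR-150-5p and miR-150-3p and those of row 2 miR-99a-3p and miR-100-3p, so row and transfection coincide there. Beyond the junction list, large row differences were seen for S100A14, with 10.30 and 10.29 in row 1 and 6.61 and 6.72 in row 2, and LCN2, lipocalin 2, with 8.56 and 8.60 in row 1 and 5.12 and 4.79 in row 2. CYP1B1, FXYD3 and LAD1, above background in both rows, differed by -3.66, -3.01 and -2.88. ATP2C2, UCA1, AP1M2 and GRHL3 were above background in row 1 and in neither channel of row 2, and S100A9 in 1 of 2. These were chosen after their values were seen. With row 1 alone, 19 junction genes were higher than in PANC-1, with row 2 alone 15, and in both cases 29 were lower than in FaDu.

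**Figure D4:**
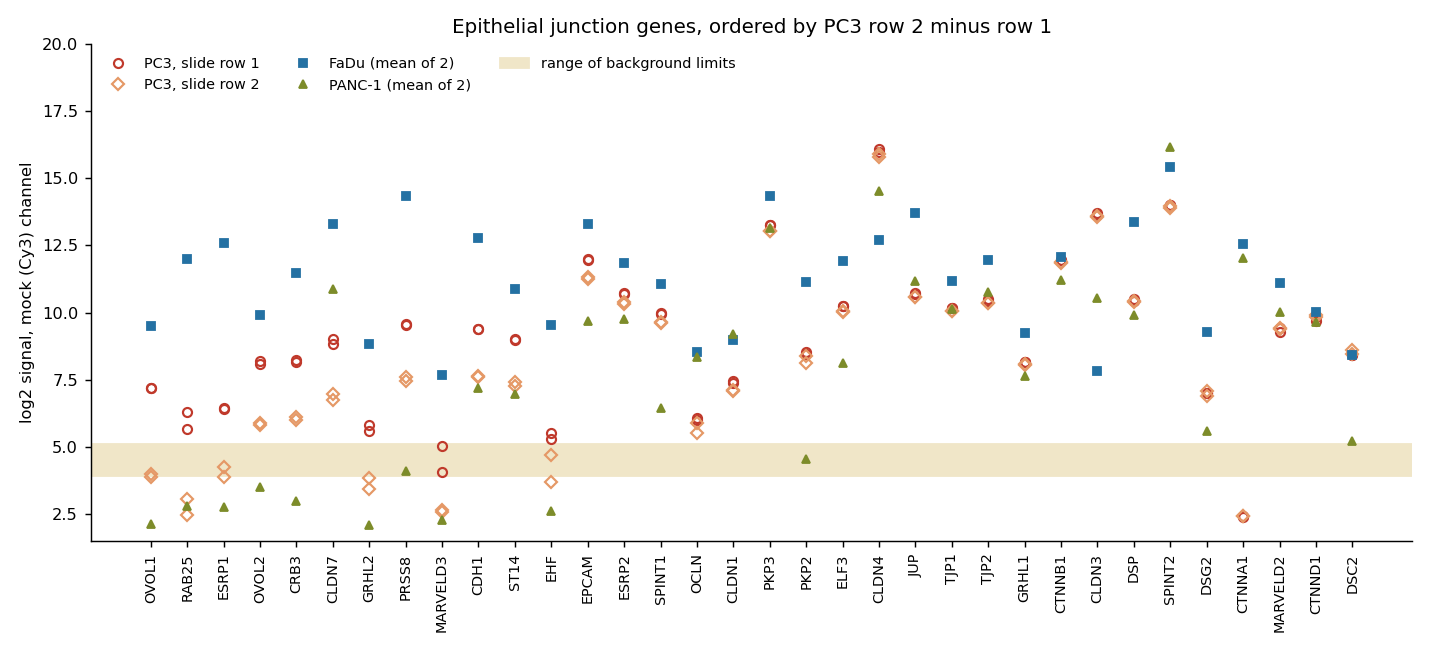
Log2 signal in the mock channel (y axis) of the 34 tested junction genes, ordered by the difference of PC3 slide row 2 minus row 1; open circles and diamonds are single PC3 channels, squares and triangles means of 2 channels, and the shaded band is the range of background limits. The circles stand above the diamonds from OVOL1 to EHF and coincide for most other genes, while CTNNA1 is at the background level in both rows.

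Of 21 tested mesenchymal genes, 10 were higher in PC3 than in FaDu and 5 lower, and 6 were higher and 6 lower than in PANC-1. Of all tested genes, 22.1% were higher and 19.9% lower than in FaDu, and 16.9% higher and 16.2% lower than in PANC-1. VIM, vimentin, read 16.26, 16.21, 16.44 and 16.46 in PC3, 5.83 and 5.96 in FaDu and 17.21 and 17.34 in PANC-1, 10.44 ± 0.13 from FaDu and -0.93 ± 0.13 from PANC-1. ZEB1, a repressor of E-cadherin, had means of 10.24 in PC3, 4.80 in FaDu and 10.88 in PANC-1, and SPARC 10.82 in PC3, 2.64 in FaDu and 11.65 in PANC-1. Higher than in both lines were CDH2, CDH11, FN1 and COL6A1, and lower than in both was TGFBI. CDH2, N-cadherin, read 11.81, 11.86, 11.84 and 11.82 in PC3, 8.85 and 8.79 in FaDu and 10.09 and 10.03 in PANC-1. FN1, fibronectin, read 8.86, 8.77, 8.51 and 8.36 in PC3, 3.48 and 2.34 in FaDu and 2.33 and 2.32 in PANC-1, at least 18.2-fold and 18.9-fold higher. CDH11 had means of 11.63 in PC3, 5.19 in FaDu and 4.78 in PANC-1. MMP2 and THY1, with means of 8.79 and 8.10 in PANC-1, were not above background in PC3, except for THY1 in 1 channel.

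Integrins bind matrix as alpha and beta pairs. Of 19 tested, 6 were higher in PC3 than in both lines and none lower, beside 10.0% and 6.87% of all tested genes. The 6 were ITGA1, ITGA2B, ITGA6, ITGA7, ITGB2 and ITGB8. ITGA1, a collagen-binding chain, read 9.99, 9.98, 10.29 and 10.27 in PC3, 3.16 and 3.61 in FaDu and 2.17 and 2.20 in PANC-1, at least 51.8-fold and 53.5-fold higher. ITGA6, a laminin-binding chain, had means of 11.60 in PC3, 10.14 in FaDu and 10.47 in PANC-1, and ITGB8 8.42 in PC3, 5.24 in FaDu and 5.81 in PANC-1. ITGB2 rests on its brighter probe: its 2 probes differed by 1.63 and -3.76 from FaDu, and the mean over probes turned that difference to -1.06. ITGA2B lost its calls with the normexp correction. ITGB1, the most widely shared beta chain, differed by -0.04 ± 0.10 and 0.28 ± 0.10, and its partner ITGA3 by 0.09 ± 0.09 and -0.02 ± 0.09.

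Cytokines and growth factors lay on both sides. Of 33 tested, 7 were higher in PC3 than in both lines and 6 lower, beside 10.0% and 6.87% of all tested genes. Higher were the neutrophil chemokines CXCL1, CXCL5 and CXCL6, CSF2, TGFB3, VEGFC and PTHLH. VEGFC, a lymphatic growth factor, read 12.73, 12.76, 12.84 and 12.85 in PC3, 10.75 and 10.72 in FaDu and 10.82 and 10.78 in PANC-1. PTHLH, the parathyroid hormone-related peptide, read 8.98, 8.92, 9.09 and 9.25 in PC3, 7.61 and 7.57 in FaDu and 6.94 and 7.20 in PANC-1. CXCL6 had means of 8.11 in PC3, 2.11 in FaDu and 3.28 in PANC-1, at least 12.8-fold higher than in FaDu. Lower were CCL5, TNF, VEGFA, EREG, HBEGF and PDGFA. VEGFA read 10.00, 9.92, 10.05 and 10.05 in PC3, 13.77 and 13.82 in FaDu and 11.76 and 11.75 in PANC-1, differing by -3.79 ± 0.10 and -1.75 ± 0.10. EREG, a ligand of the EGF receptor, had means of 4.13 in PC3, 11.92 in FaDu and 8.06 in PANC-1. The inflammatory cytokine IL1B had means of 11.72 in PC3, 13.93 in FaDu and 2.39 in PANC-1, and IL6 had 7.17 in PC3, 9.22 in FaDu and 3.35 in PANC-1, each lower than in FaDu and higher than in PANC-1. IL1A was above background in FaDu alone, and CCL2 in PANC-1 alone. TNF was below background in PC3 and PANC-1 alike, so its call against PANC-1 carries no fold. CXCL5, CSF2, TNF and HBEGF lost calls with the normexp correction, CXCL1 had 0.98 against FaDu with row 2 of PC3 alone, and CSF2 lost its call against FaDu without either FaDu channel.

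Genes known to be deleted or null in 1 or more of these lines were listed together. Of 7 tested, 3 were lower in PC3 than in both lines, CTNNA1 among them, and 1, CDKN2A, was higher. The shares over all tested genes were 6.87% lower and 10.0% higher. CDKN2A, which codes for p16, read 14.17, 14.09, 14.07 and 14.09 in PC3, 12.83 and 12.81 in FaDu and 8.37 and 8.56 in PANC-1. These values are of its brightest probe, and the size depends on the probe. Its 2 probes differed by 1.29 and 5.35 from FaDu and by 5.64 and 9.69 from PANC-1. SMAD4 read 10.59, 10.59, 10.77 and 10.72 in PC3, 2.29 and 2.30 in FaDu and 9.83 and 9.91 in PANC-1 and was below background in FaDu.

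Of 30 tested cell cycle genes, all above background in every channel, CCNE2 and CDC25A were higher than in both lines and none was lower. Among all tested genes, 10.0% were higher than in both lines and 6.87% lower. MKI67 had means of 9.69 in PC3, 9.81 in FaDu and 10.00 in PANC-1, and CCNE2 9.08 in PC3, 7.21 in FaDu and 7.96 in PANC-1. Against FaDu 10 were higher, beside 22.1% of all tested genes, such as TYMS, the thymidylate synthase, by 3.64 ± 0.12, and against PANC-1 2, beside 16.9%. Against PANC-1, CCNE2 and CDC25A were at 0.93 and 0.91 with the slide row as a block, which ends both calls. Of 16 housekeeping genes, TBP and POLR2A, both of basal transcription, were lower than in both lines, POLR2A with differences of -1.41 ± 0.10 and -1.52 ± 0.10. GAPDH had means of 16.20 in PC3, 16.57 in FaDu and 16.25 in PANC-1. Of 20 cancer-testis genes found on the array, 6 were tested and none was called against both lines; MAGEA1 and MAGEA4 were above background in FaDu alone. MAGEA6 and SSX2 belong to families of near-identical copies and are uncertain.

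Markers of blood, endothelial and fibroblast cells were checked as signs of other cells. Of 16 found on the array, 9 were tested. PECAM1, KDR and PDGFRA were higher in PC3 than in both lines and CD14 was lower, beside 10.0% and 6.87% of all tested genes. CD14 lost its call with row averages, at an adjusted p of 0.0529 against PANC-1 (limma, Benjamini-Hochberg). PECAM1, an endothelial adhesion molecule, read 6.44, 6.22, 6.22 and 6.52 in PC3, 2.24 and 2.23 in FaDu and 2.21 and 2.22 in PANC-1. KDR, a receptor for VEGF, had means of 7.43 in PC3, 2.58 in FaDu and 2.63 in PANC-1, and PDGFRA 6.87 in PC3, 2.17 in FaDu and 2.17 in PANC-1. CDH5, the cadherin of endothelium, had means of 4.71 in PC3, 5.92 in FaDu and 5.32 in PANC-1 and was lower than in FaDu, and VWF had 4.42 in PC3, 4.38 in FaDu and 4.43 in PANC-1 with no call. DCN and LUM of fibroblasts and CD3E and MS4A1 of lymphocytes were above background in no PC3 channel. The part of other cells in any result was not tested.

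Called genes were spread unevenly over the chromosomes. On chromosome 21, 28.5% of 277 tested genes were higher in PC3 than in both lines and 1.81% lower, beside 10.0% and 6.87% of all tested genes. Chromosome 18 had 19.5% higher and 2.93% lower, and chromosome 8 17.3% and 6.45%. Chromosome 16 showed the reverse, with 2.13% higher and 11.6% lower of 985 genes, as did chromosome 6 with 5.49% and 10.8%. The median difference from FaDu and PANC-1 was 0.86 and 0.70 on chromosome 21 and -0.56 and -0.34 on chromosome 16.

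**Figure D5:**
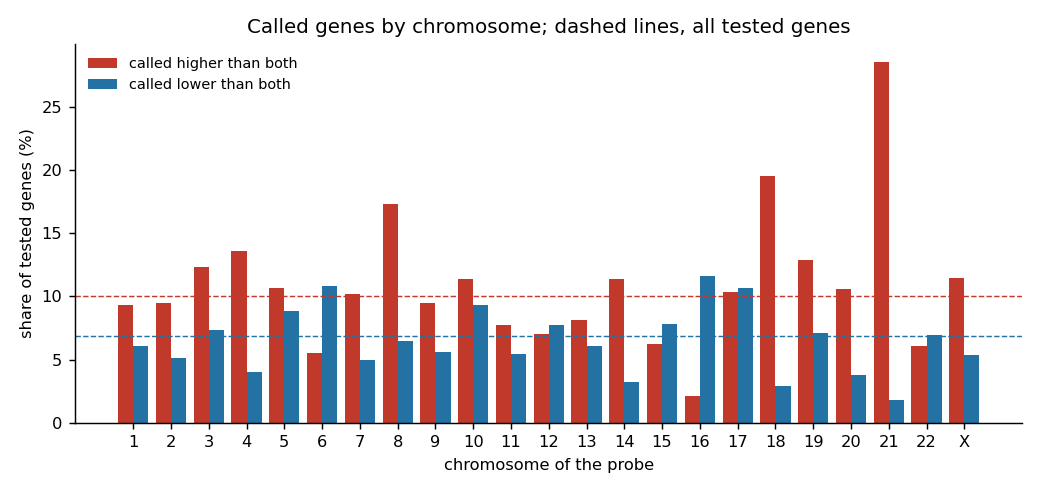
Share of tested genes called higher (red) or lower (blue) in PC3 than in both other lines, in percent (y axis), by chromosome of the probe (x axis); dashed lines give the shares over all tested genes, 10.0% and 6.87%. Chromosome 21 stands out with 28.5% higher, and chromosome 16 with 2.13% higher and 11.6% lower.

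Runs of neighbouring genes shared a call. Over all tested genes in order of probe position, 41 runs of at least 4 genes were higher and 18 lower, with 199 and 90 genes. Over protein-coding genes only, an order added after the data were seen, there were 21 runs higher with 96 genes and 8 lower with 38. Runs whose medians reached 2 log2 against each line are named here, a limit set after the values were seen. On chromosome 21 these were CLDN14, SIM2, HLCS and RIPPLY3; ABCG1, TFF3, TFF2, TFF1, TMPRSS3 and RSPH1; and COL6A1, COL6A2, FTCD and SPATC1L. TFF3, a trefoil peptide like TFF1, read 11.96, 11.99, 11.74 and 11.69 in PC3, 2.14 and 2.15 in FaDu and 10.16 and 10.25 in PANC-1. The run of trefoil genes reached from 43716784 to 43892680 of hg19, with medians of 4.36 and 4.68. Elsewhere, higher runs were NRP1, PARD3, CUL2, CREM and CCNY on chromosome 10, PPFIA3, TRPM4, SLC6A16 and TEAD2 on chromosome 19, CPOX, ST3GAL6, DCBLD2 and COL8A1 on chromosome 3, ANTXR2, PRDM8, FGF5 and BMP3 on chromosome 4, TMEM139, CASP2, CLCN1, FAM131B and ZYX on chromosome 7, CRISPLD1, HNF4G, ZFHX4, PEX2 and PKIA on chromosome 8, and XK, CYBB, DYNLT3 and SRPX on chromosome X.

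Lower runs with such medians were the STAT run on chromosome 17, FAM213A, TSPAN14, GHITM and CCSER2 on chromosome 10, CAPN12, LGALS7, LGALS4 and ECH1 on chromosome 19, FAIM, PIK3CB, FOXL2 and FOXL2NB on chromosome 3, and RAB39B, CLIC2, F8A2 and TMLHE on chromosome X. The chromosome 10 run held genes at background, such as TSPAN14 with 2.41, 2.87, 3.93 and 3.26 in PC3, 9.91 and 9.97 in FaDu and 7.99 and 8.16 in PANC-1, and genes merely reduced, such as GHITM with 12.82, 12.82, 12.64 and 12.81 in PC3, 14.32 and 14.41 in FaDu and 14.00 and 14.06 in PANC-1. PIK3CB, the beta catalytic subunit of phosphoinositide 3-kinase, read 6.10, 5.77, 5.76 and 5.72 in PC3, 7.28 and 6.96 in FaDu and 7.39 and 7.45 in PANC-1, below both lines without overlap. Dim genes of these runs lost calls with the normexp correction, among them FTCD, SLC6A16, TEAD2, ABCG1, RSPH1, FGF5, BMP3, TMEM139, CLCN1, CRISPLD1, HNF4G, PEX2, CYBB, PIK3CB, LGALS4, RAB39B and CLIC2, and TFF3 differed from PANC-1 by 0.55 with the mean over probes, its probes running from -1.38 to 1.64. ANTXR2 probes ran from -0.21 to 6.15 against FaDu and from 0.75 to 3.15 against PANC-1. For CASP2 they ran from 0.30 to 1.55 and from 0.85 to 1.17, and for CCSER2 from -1.73 to -0.70 against FaDu. The calls of ANTXR2, CASP2 and CCSER2 thus rest on the brightest probe. F8A2 and LGALS7 have near-identical copies and are uncertain.

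The Cy5 channels give the same lines in values the rule did not use, though in transfected cells on the same arrays. Of the 2155 genes called higher, 1848 (85.8%) had all 4 PC3 Cy5 values above all 4 of the other lines, beside 16.9% of all tested genes. Of the 1479 called lower, 1208 (81.7%) had them all below, beside 15.1%. None of the called genes lay without overlap in the opposite direction. HOXB13 ran from 15.15 to 15.86 in PC3 and 7.36 to 9.24 in the other lines, and THBD from 2.89 to 5.49 in PC3 and 10.22 to 13.19 in the other lines. For CTNNA1 the Cy5 values ran from 2.92 to 3.69 in PC3 and 11.64 to 12.48 in the other lines.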

How the data were processed

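Each of 8 two-colour Agilent arrays on 1 slide carried transfected cells in Cy5 and mock cells in Cy3. The deposited intensity values were the processed signals of Agilent Feature Extraction 10.7.3.1, which per the file headers were detrended, background-subtracted and dye-normalized within each array and had surrogate values where a spot was not above background. The authors' own log ratios were not used.

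The Cy3 signals of gene probes were set to missing at spots with an outlier flag, log2-transformed, quantile-normalized over 8 arrays and averaged over spots of a probe, and the brightest probe of a gene name was kept. The dye normalization ties each Cy3 signal to the Cy5 signal of its array. Genes well above background in every channel of at least 1 line were fitted with limma 3.58.1 (R 4.3.3; eBayes with trend), with a mean per line over all 8 channels, at a Benjamini-Hochberg adjusted p of 0.05 and a log2 difference of 1. SEs and adjusted p of single genes came from a second fit, chosen after the data were seen, in which channels of 1 line on 1 slide row were averaged. Tables were handled with Python 3.11.15, pandas 2.3.3, numpy 2.4.6 and the R package data.table (1.17.8). In simulated data of 21502 genes with 200 changed between PC3 and both other lines, 89% of changes of 1.5 log2 and 92% of changes of 2 log2 were called in the right direction, with 1 false call. The simulated noise was independent between all channels, unlike the pairs of channels here. These rates therefore do not give the error rate of the calls in the real data. Precision is limited by the number of arrays.

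Named are the 12 genes with the largest smaller-of-the-2 differences among genes above background on all 8 arrays, per direction, the 12 above background in PC3 alone, the 12 above background everywhere but PC3, and the members of the gene lists; other genes are marked as chosen after their values were seen. The members and lists were chosen with earlier results of these data known. Of the tested names, 16162 matched the RefSeq gene table of GRCh38.p14, which was used for current names and gene types only. Probe positions are those of the array design on hg19. Alternatives were other background corrections and scalings, other filters and probe rules, other variance models and fold limits, the slide row, and leaving out each channel. Some members of the lists are not reported here by name.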

Additional observations from a re-analysis of the deposited data

Results flagged for a closer look

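In each of 297 genes named in the report or its lists, the 4 mock PC3 channels were checked for 1 channel far from the other 3, and 13 were found. Chance gives about 1 in 20 for 4 independent channels, whereas these come in pairs by slide row, so that the rate for them is not known. The single channel lay above the rest in CELA3A (6.21), DLL3 (9.75), CSF2 (7.30), TEAD2 (7.15), RIPPLY3 (9.19), RSPH1 (7.87) and PIK3CB (6.10), in log2 signal. It lay below the rest in MARVELD2 (9.28), HOXA11 (6.86), HOXC4 (5.63), MAGEA6 (6.10), HPRT1 (12.16) and GHITM (12.64). The gap to the nearest channel was wide in CELA3A, a pancreatic elastase whose other channels lay between 5.21 and 5.26, and in CSF2, a growth factor of myeloid cells, whose other channels lay between 6.43 and 6.47. In DLL3, a Notch ligand of neuroendocrine cells, the other channels lay between 9.62 and 9.63, and in HPRT1, a purine salvage enzyme, between 12.26 and 12.27.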

How the results depend on the processing

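The counts of genes higher and lower than in both lines moved most with the treatment of dim signals and with the fold limit. Restricted to genes above background on all 8 arrays they were 974 and 886, with normexp and quantile normalization 1153 and 618, with normexp, loess and Aquantile normalization 1261 and 652, without a fold limit 4759 and 4385, and with a log2 limit of 2 they were 954 and 476. In the same order the genes past the threshold were 5328, 5200, 5452, 16784 and 4179 against FaDu, and 3909, 3732, 4007, 15194 and 3149 against PANC-1. Fewer genes are tested under the filter, and the normexp offset of 50 is added to every signal; the part of each in these counts was not tested further. Without 1 channel at a time the counts ran from 2099 to 2157 higher, from 1438 to 1497 lower, from 8902 to 9032 against FaDu and from 6957 to 7131 against PANC-1. Single genes were checked for only a small part of the 21517 tested. Of those checked, 1 turned: ITGB2 differed from FaDu by -1.06 with the mean over probes. The other alternatives, with 75th percentile scaling, no filter, outlier spots kept, array weights, no variance trend, the slide row as a block or within rows, kept all 4 counts within 1.5 times. HOX genes lower than in both were 11, and 5 under either normexp setting. No paired analysis was possible because the labels give the mock channels no replicate numbers shared between lines. The labels do not say which line had which medium, 1 slide and 2 rows hold all samples, FaDu and PANC-1 have 1 sample each in effect, and signals near the limits of 3.93 to 5.11 log2 carry no order.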
